A study of Mus musculus with 6 samples.

Results

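*Lcn2* encodes lipocalin 2, a secreted protein of neutrophils, macrophages and injured tissue that binds iron-loading siderophores of bacteria, and it is among the genes that inflammation raises most. The account here covers *Lcn2* and 8 genes that belong with it, 9 of the 17441 genes listed in the series: its cell-surface receptor *Slc22a17*, and the acute-phase genes *Serpina3n*, *Lrg1*, *Saa3*, *Hp*, *Cp*, *Steap4* and *Chil1*. They were chosen by name, as genes of the acute-phase response and the receptor of lipocalin 2, with no cut on their values. Earlier results of these data were known at that choice, so their counts and medians beside those of all genes are descriptions only. RNA-seq of mouse heart below the level of the coronary ligature compared 3 groups of 2 libraries, all from male mice of 12 weeks by their labels and on a C57BL/6 background, taken 3 days after surgery. WT Sham mice were operated on without ligation, WT MI mice had the left anterior descending coronary artery ligated, and *Card9* KO MI mice had the same ligation and a *Card9* knockout. The WT controls were littermates or C57BL/6 mice by the study's methods. No sham-operated knockout hearts were analysed here, so genotype and infarct cannot be told apart when *Card9* KO MI is set against WT Sham. For the same reason, a difference between the infarct groups cannot be told apart from one present before infarction.

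The acute-phase response is the change in protein output that follows infection or tissue damage. Interleukin 6 acts on it through the receptor subunit gp130 and the transcription factor STAT3, and interleukin 1 and tumour necrosis factor through NF-kB, with C/EBP factors serving both arms. The liver supplies most of the plasma proteins, while infiltrating leukocytes, fibroblasts, endothelial cells and cardiomyocytes of an injured heart can make some of them on site. CARD9 is an adapter of myeloid cells that links pattern-recognition receptors to NF-kB.

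*Card9* itself goes against the label. Its FPKM, a level per gene length and library size given here for replicate 1 and then replicate 2 of each group, was 0.99 and 1.03 for WT Sham, 3.39 and 5.08 for WT MI, and 9.85 and 6.94 for the *Card9* KO MI-labelled libraries, where it was thus not lower. The gene-level values do not show whether the reads came from a part of the gene that the knockout leaves, so these libraries are named by their label, on which each direction relative to WT MI depends. The libraries listed 14935 to 15852 genes and held an estimated 3040000 to 4300000 fragments, which makes 3 fragments on a transcript of 2 kb worth 0.349 to 0.493 FPKM. Log2 values of the 2 libraries of a group correlated at 0.98 to 0.981 across genes, which are not independent replicates. Summed cardiomyocyte markers, with all 12 genes above 0, came to 64400 and 65500 FPKM for WT Sham, 37200 and 38400 for WT MI, and 30800 and 35500 for *Card9* KO MI. Liver RNA was scarce, with albumin (*Alb*) at no more than 0.59 FPKM.

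Most of the group was higher after infarction in WT hearts. Of the 8 genes with enough signal to test, 5 were higher (*Lcn2*, *Serpina3n*, *Saa3*, *Hp* and *Lrg1*) and 1 was lower (*Steap4*) in WT MI relative to WT Sham, where 27.7% of all 13120 tested genes were higher and 9.39% lower. Their median difference in log2(FPKM + 1) was 2.29, against 0.19 over all tested genes. In the *Card9* KO MI-labelled libraries against WT MI, 3 of the 8 were lower (*Lcn2*, *Serpina3n* and *Lrg1*) and 0 were higher, where 0.587% of all tested genes were lower and 0.816% higher. At an unadjusted p under 0.05, 4 of the 8 were lower and 1 was higher, where 8.57% of all tested genes were lower and 11.5% higher at that level. Their median difference was -0.73, against 0.04 over all genes. Against WT Sham, the *Card9* KO MI-labelled libraries had 5 of the 8 higher (*Lcn2*, *Serpina3n*, *Saa3*, *Hp* and *Slc22a17*) and 2 lower (*Cp* and *Steap4*), with backgrounds of 34.8% and 14.3%. In both counts against WT Sham, *Saa3* could only be called higher, since it entered the test only through infarct libraries. The comparisons share libraries, each group entering 2 of them. Calls are from limma on log2(FPKM + 1) with Benjamini-Hochberg adjusted p below 0.05 over all tested genes.

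**Figure D1:**
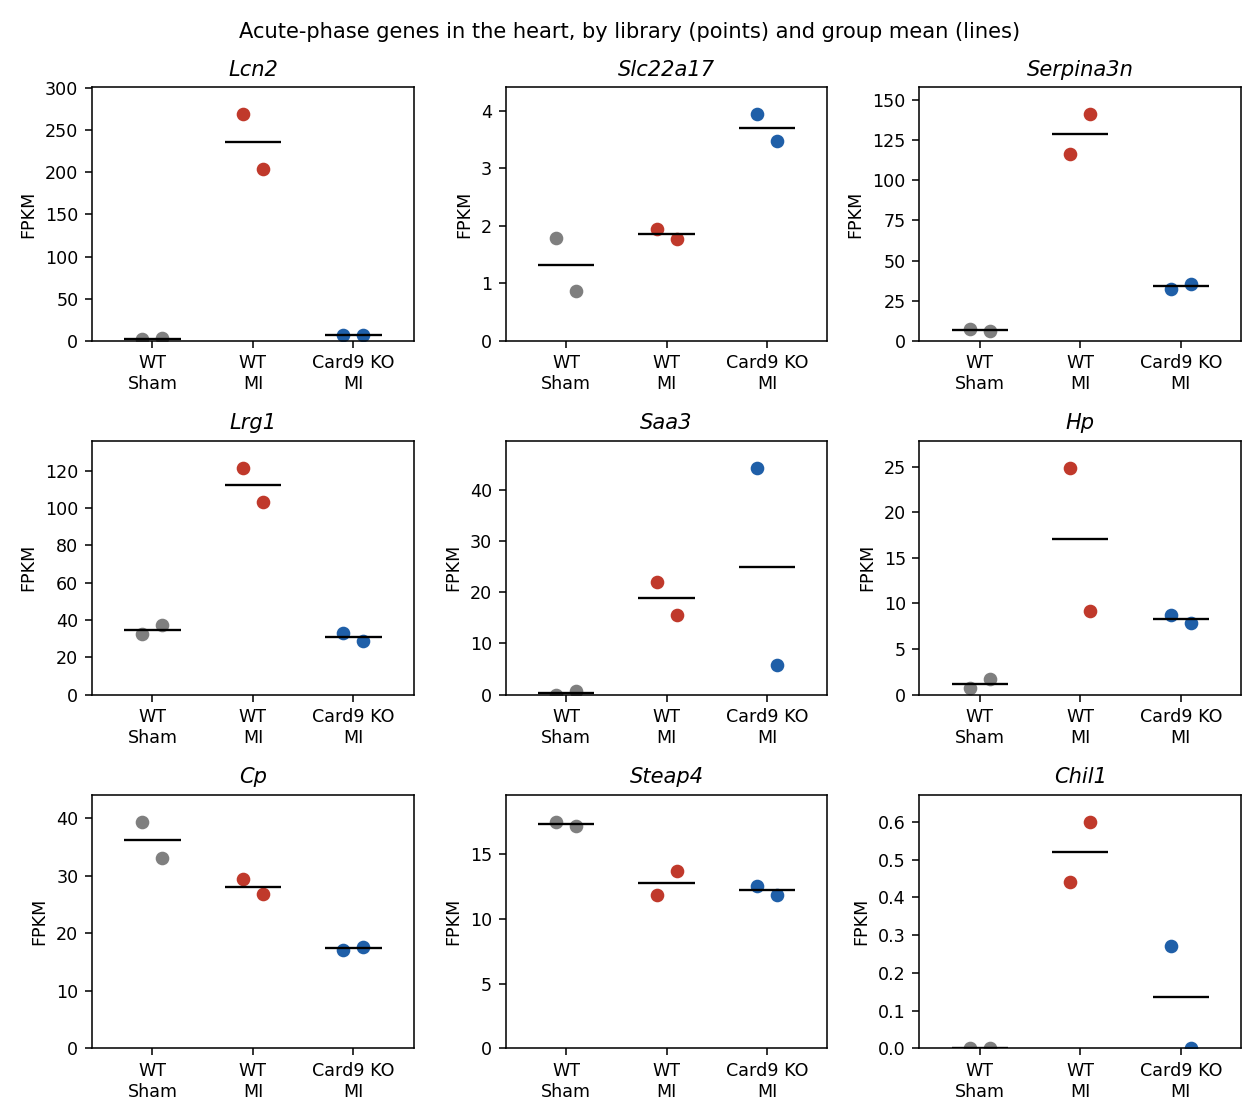
FPKM (vertical axis, from 0, a separate scale per gene) of the 9 genes in the 3 groups, with 1 point per library and a line at the group mean of 2. *Lcn2*, *Serpina3n* and *Lrg1* stand above both other groups in WT MI, *Slc22a17* is highest in *Card9* KO MI, and the points of *Saa3* for *Card9* KO MI lie far apart, at 44.26 and 5.76.

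The values depend on how libraries are scaled, because FPKM is a share of each library. The median difference of WT MI from WT Sham over all genes was 0.19 on the log2(FPKM + 1) scale as deposited, 0.00 after upper-quartile scaling and -0.09 after quantile normalization, and the calls over all genes went from 3637 higher and 1232 lower to 2603 and 2159, and to 2198 and 2447. For *Card9* KO MI relative to WT Sham the medians were 0.24, 0.03 and -0.10, with 4569 higher and 1875 lower, 3230 and 2884, and 2755 and 3444. Between the infarct groups the medians stayed between -0.01 and 0.04, with 107 higher and 77 lower, 88 and 93, and 125 and 118. The calls of *Steap4*, *Cp* and *Slc22a17* are given with their values under each scaling.

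Promoter sequence is shown for *Lcn2*, *Serpina3n* and *Lrg1*, which were higher after infarction in WT and then lower under the *Card9* KO MI label, and for *Steap4*, which inflammatory cytokines raise in other tissues and which was lower after infarction here. These are the 250 bases before the annotated start, 5′ to 3′ on the strand of the gene, from RefSeq on GRCm38.p6, in which 8 of the 9 genes had a window. Capitals mark matches, on either strand, to an NF-kB motif (3 G, any 5 bases, 2 C), a STAT motif (TTCNNNGAA), a C/EBP motif (TTGCNNAA) or a TATA motif (TATAAA).
Lcn2, chr2:32387740-32387989, minus strand: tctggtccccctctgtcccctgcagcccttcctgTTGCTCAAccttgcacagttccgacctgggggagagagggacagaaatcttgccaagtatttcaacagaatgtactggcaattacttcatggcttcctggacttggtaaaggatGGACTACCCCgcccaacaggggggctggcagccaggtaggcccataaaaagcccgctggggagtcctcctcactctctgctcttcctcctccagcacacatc
Serpina3n, chr12:104406458-104406707, plus strand: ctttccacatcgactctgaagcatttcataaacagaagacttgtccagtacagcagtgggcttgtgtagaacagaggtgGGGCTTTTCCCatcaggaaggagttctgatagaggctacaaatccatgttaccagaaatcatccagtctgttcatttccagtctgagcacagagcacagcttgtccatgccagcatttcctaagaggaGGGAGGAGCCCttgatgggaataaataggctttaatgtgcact
Lrg1, chr17:56121947-56122196, minus strand: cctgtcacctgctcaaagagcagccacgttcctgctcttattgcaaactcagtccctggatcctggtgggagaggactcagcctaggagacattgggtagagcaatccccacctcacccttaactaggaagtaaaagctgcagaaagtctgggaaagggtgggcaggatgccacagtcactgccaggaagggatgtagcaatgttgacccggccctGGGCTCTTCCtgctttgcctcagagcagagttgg
Steap4, chr5:7960222-7960471, plus strand: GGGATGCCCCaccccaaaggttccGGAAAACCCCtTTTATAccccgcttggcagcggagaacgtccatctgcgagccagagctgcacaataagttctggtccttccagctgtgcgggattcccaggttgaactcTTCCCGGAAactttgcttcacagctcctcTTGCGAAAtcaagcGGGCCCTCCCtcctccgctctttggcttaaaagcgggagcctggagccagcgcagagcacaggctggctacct
The *Lcn2* window held a C/EBP match at position -216 and an NF-kB match at -102, counted from the start site to the first base of the match. The *Serpina3n* window held 2 pairs of NF-kB matches, each pair overlapping on opposite strands with an offset of 1 base, from positions -171 and -43, and the *Lrg1* window held 1, at -34. *Steap4* had matches to all 4 motifs, with 3 for NF-kB. Of the other windows, *Slc22a17* held none of these letters in its upstream bases, *Saa3* a C/EBP match, *Chil1* 2 NF-kB matches, and of the 2 starts of *Cp* 1 held none and the other NF-kB, C/EBP and TATA matches. Such matches are common: of 32851 windows of the same length, 45.8% held the NF-kB motif, 9.56% the C/EBP motif, 7.02% the STAT motif and 12.4% the TATA motif. In the 13185 windows of tested genes the shares were 60.6%, 7.55%, 5.97% and 6.80%. They describe the letters in these windows and nothing of binding.

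*Lcn2* was the member with the widest range. Its gene spans chr2:32240153-32243317 on the minus strand of mm9, the build of the deposited values. It stood at 1.90 and 3.17 FPKM for WT Sham, at 268.76 and 203.93 for WT MI, and at 6.98 and 7.27 for the *Card9* KO MI-labelled libraries. The 3 groups did not overlap, and the order WT MI, *Card9* KO MI, WT Sham held library by library. From WT Sham (2.54 ± 0.898 FPKM, SD, n = 2) to WT MI (236 ± 45.8, n = 2) the level rose 93.2-fold, a difference of 6.08 in log2(FPKM + 1) (SE 0.20, limma adjusted p = 5.2e-06), which ranked 3 from the top among 13120 genes. In the *Card9* KO MI-labelled libraries (7.12 ± 0.205, n = 2) it was 33.2-fold lower than in WT MI, a difference of -4.86 (95% confidence interval -5.32 to -4.39, limma adjusted p = 2.0e-04) and the lowest of all 13120. It was still 2.81-fold above WT Sham (1.22, SE 0.20, limma adjusted p = 0.0017), a difference that was 0.80 (adjusted p = 0.012) under quantile normalization. With 1 library left out at a time, the difference between the infarct groups ran from -5.05 to -4.66.

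Among the members, *Lcn2* had the highest mean FPKM in WT MI, place 5 of 9 for WT Sham and place 7 of 9 for *Card9* KO MI. The genes whose profile over the 6 libraries was nearest, by the root mean square difference between log2(FPKM + 1) values centred on their own means, were *Chil3* at 1.19, *Serpina3n* at 1.27, *Mmp9* at 1.33, *Stfa2l1* at 1.33 and *S100a8* at 1.36. *Chil3* is a chitinase-like protein of myeloid cells, *Mmp9* a gelatinase, *Stfa2l1* a stefin of neutrophils and *S100a8* a subunit of calprotectin. Of the other members, *Hp* ranked 24, *Lrg1* 40 and *Saa3* 136 by this measure among all tested genes. In the plot of these profiles, *Lcn2* lay above each of the 5 in both WT MI libraries and below each of them in both *Card9* KO MI libraries.

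**Figure D2:**
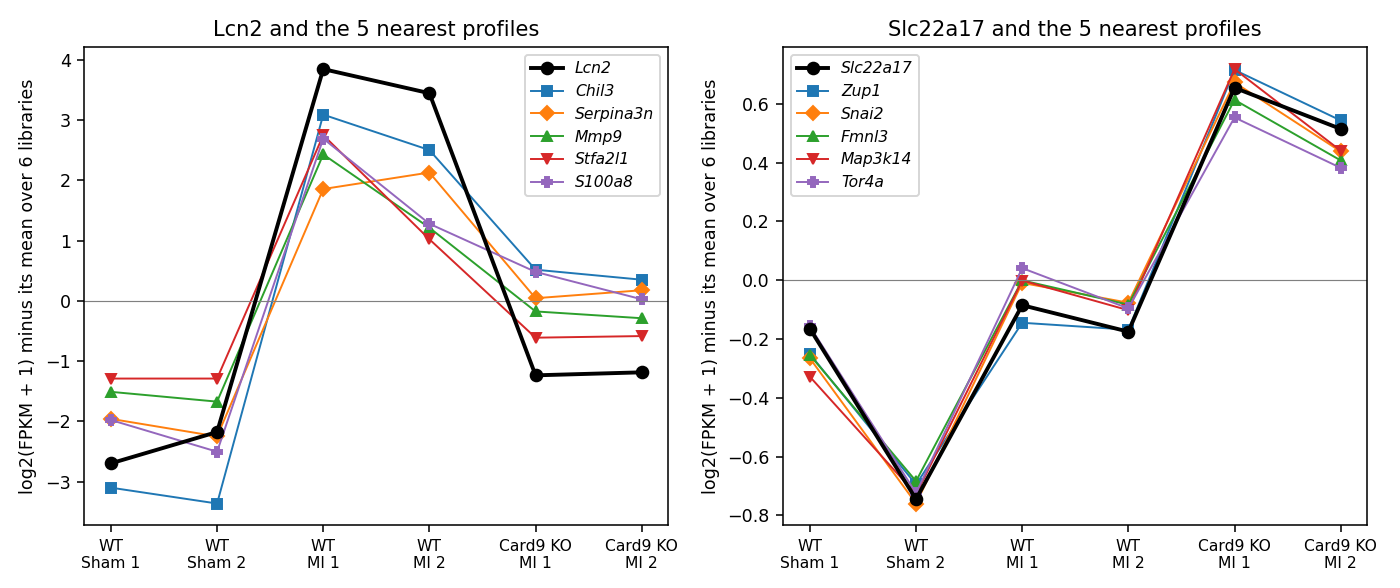
Log2(FPKM + 1) of each gene minus its own mean over the 6 libraries (vertical axis), by library, for *Lcn2* (left, black) and *Slc22a17* (right, black) with the 5 genes nearest to each. *Lcn2* and its neighbours peak in WT MI, and *Slc22a17* and its neighbours peak in *Card9* KO MI.

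The receptor of lipocalin 2 had its highest level under the *Card9* KO MI label, where *Lcn2* was highest in WT MI. *Slc22a17* encodes a membrane protein that takes up lipocalin 2 with its iron load, at chr14:55525564-55531969 on the minus strand of mm9, and its level was low throughout. It was 1.79 and 0.86 FPKM for WT Sham, 1.94 and 1.77 for WT MI, and 3.94 and 3.47 for the *Card9* KO MI-labelled libraries. Both *Card9* KO MI libraries were above the other 4, and the ranges of WT Sham and WT MI overlapped. The difference between WT MI and WT Sham was 0.33 (95% confidence interval -0.23 to 0.88, limma adjusted p = 0.32) and changed sign to -0.04 under quantile normalization. Between the infarct groups it was 0.72 (0.16 to 1.28, limma adjusted p = 0.16). Against WT Sham, the *Card9* KO MI-labelled libraries were 2.80-fold higher (1.04, SE 0.24, limma adjusted p = 0.0085), a call lost without *Card9* KO MI replicate 1 (0.97, adjusted p = 0.053) and under quantile normalization (0.58, adjusted p = 0.075), though not after upper-quartile scaling (0.88, adjusted p = 0.019).

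The profiles nearest to *Slc22a17* were those of *Zup1* at 0.05, *Snai2* at 0.07, *Fmnl3* at 0.08, and *Map3k14* and *Tor4a* at 0.09. The other known receptors of lipocalin 2 were near or below detection: *Lrp2*, which encodes megalin, was at no more than 0.06 FPKM and *Mc4r* was not listed in any library.

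*Mmp9*, whose product forms a complex with lipocalin 2 that shields it from degradation, had 0.69 and 0.51 FPKM for WT Sham, 24.91 and 10.15 for WT MI, and 3.26 and 2.94 for the *Card9* KO MI-labelled libraries. Its groups kept the order of *Lcn2* without overlap. The differences were 3.41 between WT MI and WT Sham (SE 0.35, limma adjusted p = 3.4e-04) and -2.05 between the infarct groups (SE 0.35, limma adjusted p = 0.045). With both WT Sham values below the filter of 1 FPKM, the first could only come out positive. The second lay at the threshold. It passed in 4 of 9 alternative settings with all libraries and in 1 of 6 fits that left out a library, and came to -1.44 (limma adjusted p = 0.16) without WT MI replicate 1.

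*Serpina3n* and *Lrg1* changed as *Lcn2* did between the infarct groups, by less. *Serpina3n* encodes a secreted inhibitor of serine proteases such as elastase and granzyme B, at chr12:105644939-105652539 on the plus strand of mm9. It was 7.36 and 5.83 FPKM for WT Sham, 116.45 and 141.02 for WT MI, and 32.47 and 35.68 for the *Card9* KO MI-labelled libraries, 3 groups without overlap. WT MI was 19.5-fold above WT Sham (4.10, SE 0.14, limma adjusted p = 5.8e-06, rank 21 from the top). The libraries labelled *Card9* KO MI held 26.5% of the WT MI level (-1.88, 95% confidence interval -2.22 to -1.55, limma adjusted p = 0.0042, rank 12 from the bottom) and were 5.17-fold above WT Sham (2.21, SE 0.14, limma adjusted p = 2.9e-05). In this group *Serpina3n*, at 34.1 ± 2.27 FPKM (SD, n = 2), had the highest mean of the 9 genes.

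*Lrg1* encodes leucine-rich alpha-2-glycoprotein, a secreted protein that modulates signalling by transforming growth factor beta, at chr17:56259103-56261369 on the minus strand of mm9. It was expressed at 32.55 and 37.11 FPKM for WT Sham already, at 121.45 and 103.21 for WT MI, and at 32.80 and 28.47 for the *Card9* KO MI-labelled libraries. WT MI stood apart, and the ranges of the other groups overlapped. WT MI was 3.23-fold above WT Sham (1.66, SE 0.13, limma adjusted p = 1.1e-04), and the *Card9* KO MI-labelled libraries were at 27.3% of WT MI (-1.84, 95% confidence interval -2.13 to -1.54, limma adjusted p = 0.0025, rank 16 from the bottom). Relative to WT Sham, *Card9* KO MI differed by -0.18 (-0.48 to 0.12, limma adjusted p = 0.27), and it passed the test as lower after upper-quartile scaling (-0.43, adjusted p = 0.026) and quantile normalization (-0.36, adjusted p = 0.049). For *Lrg1* and *Serpina3n* the call between the infarct groups was kept in all 15 alternative settings, with adjusted p of at most 0.028 and 0.03.

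**Figure D3:**
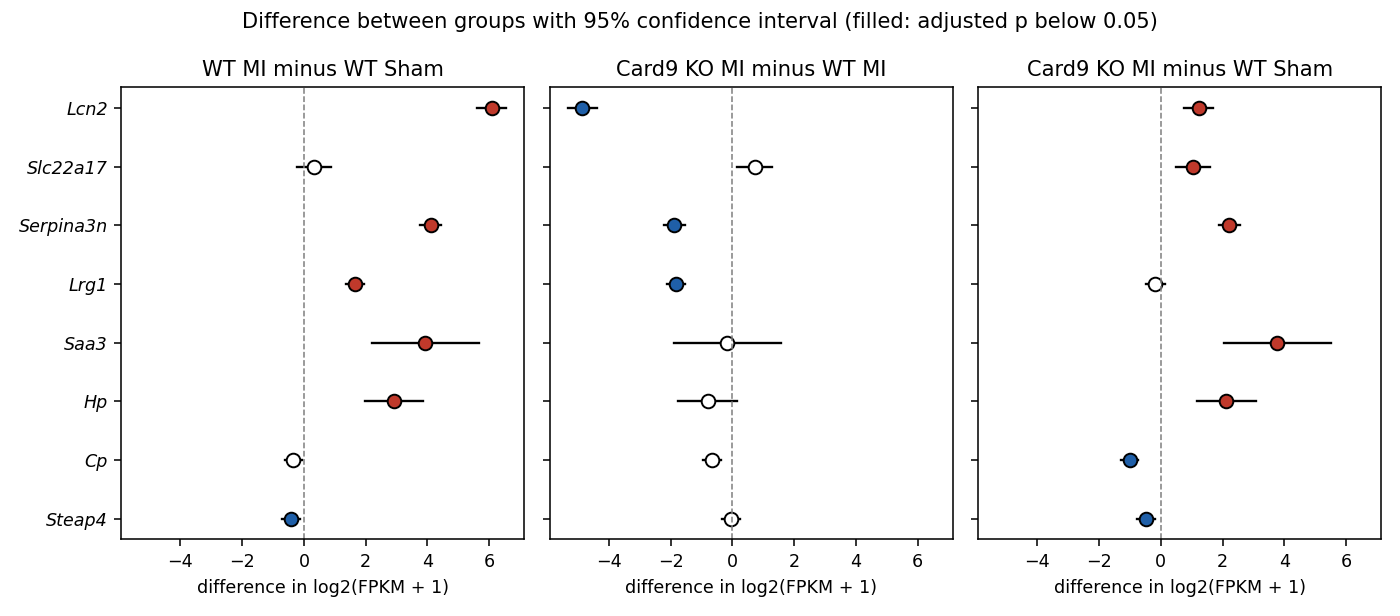
Difference between group means of log2(FPKM + 1) (horizontal axis) for the 8 tested genes in 3 comparisons, with 95% confidence intervals as bars. Filled points passed an adjusted p below 0.05 (red higher, blue lower). *Lcn2*, *Serpina3n* and *Lrg1* are filled and left of 0 between the infarct groups, while the bars of *Saa3* and *Hp* cross 0 there.

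*Saa3* and *Hp* rose after infarction and were not called between the infarct groups. *Saa3*, the serum amyloid A made outside the liver by macrophages and stromal cells, lies at chr7:53967368-53971046 on the minus strand of mm9 and was listed at 0 and 0.65 FPKM for WT Sham, the latter about 1.0 fragment. It was 22.08 and 15.64 for WT MI, and 44.26 and 5.76 for the *Card9* KO MI-labelled libraries, which enclosed the WT MI values on both sides. Both infarct groups were above WT Sham, by 3.93 (SE 0.75, limma adjusted p = 0.0053) and 3.77 (SE 0.75, limma adjusted p = 0.0044), and no ratio is given against so few fragments. *Saa3* passed the filter of 1 FPKM only through infarct libraries, so a call against WT Sham could only be a rise. Between the infarct groups the difference of -0.16 (95% confidence interval -1.90 to 1.57, limma adjusted p = 0.93) could not be resolved, since it went to -1.54 without *Card9* KO MI replicate 1, to 1.21 without *Card9* KO MI replicate 2 and to 0.07 without WT MI replicate 1. The difference of *Card9* KO MI from WT Sham was 2.40 without the first of these and 5.14 without the second.

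*Hp*, at chr8:112099030-112103072 on the minus strand of mm9, encodes haptoglobin, which binds free haemoglobin and limits the oxidative damage it does. Its FPKM was 0.70 and 1.71 for WT Sham, about 3.0 and 7.0 fragments, then 24.86 and 9.21 for WT MI and 8.76 and 7.87 for the *Card9* KO MI-labelled libraries. All 4 infarct libraries were above both WT Sham libraries, and both WT MI libraries above both *Card9* KO MI libraries, WT MI replicate 2 by little. WT MI was 14.1-fold above WT Sham (2.92, SE 0.41, limma adjusted p = 0.0013), and with only 1 WT MI library the difference was 2.25 (replicate 1 left out) or 3.59 (replicate 2 left out). *Card9* KO MI was 6.90-fold above WT Sham (2.12, SE 0.41, limma adjusted p = 0.004). The difference between the infarct groups was -0.80 (95% confidence interval -1.76 to 0.15, limma adjusted p = 0.32), and -0.13 without WT MI replicate 1.

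*Cp* and *Steap4*, which handle copper and iron, were lower in the *Card9* KO MI-labelled libraries than in WT Sham, and *Steap4* in WT MI too. *Cp* encodes ceruloplasmin, a copper-carrying ferroxidase, at chr3:19857054-19909145 on the plus strand of mm9, and had the highest mean of the 9 genes in WT Sham, at 36.2 ± 4.45 FPKM (SD, n = 2). Its levels were 39.34 and 33.04 for WT Sham, 29.39 and 26.75 for WT MI, and 17.13 and 17.66 for the *Card9* KO MI-labelled libraries, 3 groups without overlap. The libraries labelled *Card9* KO MI were at 48.1% of WT Sham (-1.01, SE 0.12, limma adjusted p = 4.0e-04), a difference of -1.25 after upper-quartile scaling and -1.23 after quantile normalization, both called. The step from WT Sham to WT MI was -0.35 (SE 0.12, limma adjusted p = 0.055) and the step between the infarct groups -0.66 (95% confidence interval -0.94 to -0.38, limma adjusted p = 0.051). Both lay at the threshold and passed it in 4 of 15 alternative settings each, among them upper-quartile scaling (-0.56, adjusted p = 0.0085, and -0.69, adjusted p = 0.045) and quantile normalization (-0.53, adjusted p = 0.011, and -0.70, adjusted p = 0.039).

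*Steap4*, at chr5:7960472-7982213 on the plus strand of mm9, encodes a metalloreductase that reduces iron and copper for uptake, and inflammatory cytokines raise it in other tissues. In these hearts it was 17.51 and 17.22 FPKM for WT Sham, 11.89 and 13.68 for WT MI, and 12.57 and 11.87 for the *Card9* KO MI-labelled libraries. Both infarct groups were below WT Sham, and they overlapped with each other. The differences from WT Sham were -0.42 for WT MI (SE 0.12, limma adjusted p = 0.032) and -0.47 for *Card9* KO MI (SE 0.12, limma adjusted p = 0.015). They were -0.62 and -0.71 after upper-quartile scaling and -0.63 and -0.75 after quantile normalization, all called. The first was lost without any one of the 4 libraries it compares (-0.51 to -0.32, adjusted p of 0.054 to 0.17) and the second without WT Sham replicate 1 (-0.46, adjusted p = 0.056) or *Card9* KO MI replicate 2 (-0.44, adjusted p = 0.065). Between the infarct groups the difference was -0.06 (95% confidence interval -0.34 to 0.23, limma adjusted p = 0.84). Cardiomyocyte markers moved the same way as *Cp* and *Steap4*: limma called 9 of 12 lower in WT MI and 12 of 12 in *Card9* KO MI against WT Sham, where 9.39% and 14.3% of all tested genes were lower. The median differences of these markers were -0.84 and -0.99. Their part in the levels of *Cp* and *Steap4* was not tested.

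*Chil1*, a chitinase-like glycoprotein of macrophages and neutrophils at chr1:136078753-136086758 on the plus strand of mm9, was the member that did not reach the level for testing. It was listed at 0 in both WT Sham libraries, at 0.44 and 0.60 FPKM for WT MI, and at 0.27 and 0 for the *Card9* KO MI-labelled libraries. These values lie near what 3 fragments are worth, so a difference between the infarct groups was not detectable at this depth. In the fit without a filter on low values, the difference between WT MI and WT Sham was 0.60 (limma adjusted p = 0.031) and that between the infarct groups -0.43 (limma adjusted p = 0.24).

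Most of the upstream arm of the response rose with infarction. None of its genes was called between the infarct groups, where few of all tested genes were. Of 26 genes for inducing cytokines, their receptors and the transcription factors, 25 were tested, and 20 were higher and 0 lower in WT MI relative to WT Sham, with a median difference of 1.24. Over all tested genes, 27.7% were higher and 9.39% lower there. Of the 5 that were not called there, 4 had positive differences and *Lifr*, the receptor of leukaemia inhibitory factor, a difference of -0.45 (limma adjusted p = 0.065). In the *Card9* KO MI-labelled libraries, 21 of the 25 were higher than in WT Sham and 0 lower, with a median of 1.36, where 34.8% and 14.3% of all tested genes were. Some of the list, among them *Il6*, *Il1r2* and *Lif*, were below 1 FPKM in both WT Sham libraries. They passed the filter only through infarct libraries and could only come out higher, which fixed part of these counts and medians. Between the infarct groups limma called 0 of the 25, with a median of -0.04. Only 0.816% of all tested genes were higher and 0.587% lower there, so 0 of 25 does not set the list apart. At an unadjusted p under 0.05, 2 were higher (*Lif* and *Cebpa*) and 2 lower (*Il1r2* and *Nfkbia*), where 11.5% of all tested genes were higher and 8.57% lower.

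*Il6*, which encodes interleukin 6, was listed at 0 in both WT Sham libraries, at 5.08 and 5.94 FPKM for WT MI, and at 4.34 and 6.79 for the *Card9* KO MI-labelled libraries, so that the second range enclosed the first. *Il1b*, for interleukin 1 beta, went from 0.96 and 1.00 for WT Sham to 8.65 and 9.47 for WT MI and 13.60 and 9.20 for *Card9* KO MI. *Il17ra*, for the interleukin 17 receptor whose signal raises *Lcn2* in many cells, was 1.39 and 1.05, then 12.46 and 9.86, then 8.57 and 9.27. Of these 3, the infarct groups overlapped for *Il6* and *Il1b*, and for *Il17ra* the lower WT MI value of 9.86 stood just above the higher *Card9* KO MI value of 9.27. *Stat3*, the transcription factor itself, had 46.19 and 43.50 FPKM for WT Sham, 77.53 and 68.68 for WT MI, and 62.66 and 68.39 for *Card9* KO MI (WT MI against WT Sham 0.69, limma adjusted p = 0.0019, and between the infarct groups -0.15, limma adjusted p = 0.46). *Il6st*, for the gp130 subunit, differed by 0.34 (limma adjusted p = 0.029) and -0.16 (limma adjusted p = 0.42) in the same comparisons, and the first was lost after upper-quartile scaling (0.13, adjusted p = 0.36) and quantile normalization (0.16, adjusted p = 0.28). A gap between the infarct groups that did not pass was that of *Il1r2*, a decoy receptor for interleukin 1 found on neutrophils and macrophages. It was 0.23 and 0 for WT Sham, 15.59 and 5.09 for WT MI, and 1.90 and 1.80 for *Card9* KO MI, a difference of -1.82 between the infarct groups (limma adjusted p = 0.083). *Lif*, for leukaemia inhibitory factor, had a gap of the other sign, with 1.36 and 1.39 FPKM for WT MI and 3.52 and 3.16 for *Card9* KO MI (0.87, limma adjusted p = 0.089). *Nfkbia*, for an inhibitor of NF-kB, was 51.51 and 48.16 for WT MI and 36.23 and 32.39 for *Card9* KO MI (-0.53, limma adjusted p = 0.15). The infarct groups did not overlap for these 3 genes, nor for *Cebpa*, a C/EBP factor, at 11.05 and 16.53 for WT MI and 23.56 and 17.64 for *Card9* KO MI (0.56, limma adjusted p = 0.22). With 2 libraries against 2, groups without a difference fail to overlap with a probability of 0.333. Here and for other genes, a lack of overlap between 2 groups therefore only describes the values. *Cebpa* was among the inducers with the widest rise from WT Sham to *Card9* KO MI (2.18, limma adjusted p = 2.0e-04).

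**Figure D4:**
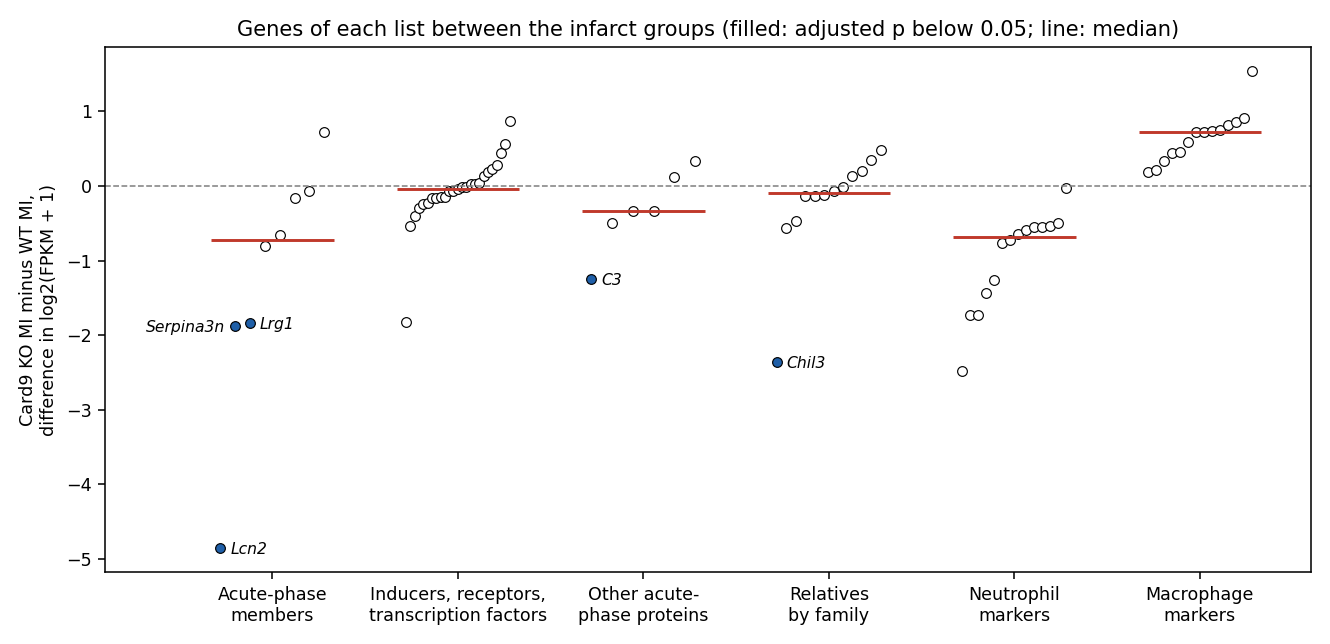
Difference in log2(FPKM + 1) between *Card9* KO MI and WT MI (vertical axis) for each tested gene of 6 lists, sorted within a list, with a red line at the list's median. Filled points passed an adjusted p below 0.05. *Lcn2* at -4.86 lies below every other gene shown, the inducers centre on -0.04, and the neutrophil and macrophage markers lie on opposite sides of 0.

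Genes of other acute-phase proteins were mostly at or near 0 in these libraries. Of 22 such genes 15 were listed and 6 could be tested, and the main liver products *Saa1*, *Orm1*, *Orm2*, *Fga*, *Fgb* and *Apcs* were not listed in any library. In WT MI, 2 of the 6 were higher than in WT Sham, *Cd14*, a co-receptor for lipopolysaccharide that is also among the macrophage markers (1.67, limma adjusted p = 0.0025), and *Itih4*, an inter-alpha-trypsin inhibitor heavy chain (1.00, limma adjusted p = 0.029, and 0.59, adjusted p = 0.15, under quantile normalization). That is near the share of all tested genes that were higher, 27.7%. *Itih4* was at 0.70 and 0.42 FPKM for WT Sham and passed the filter of 1 FPKM only through infarct libraries, so it could only come out higher. Between the infarct groups, where 0.587% of all tested genes were lower, 1 of the 6 was lower, complement component C3. Its gene *C3* was 35.98 and 36.83 FPKM for WT Sham, 42.06 and 51.71 for WT MI, and 18.44 and 19.54 for the *Card9* KO MI-labelled libraries. It was lower in *Card9* KO MI than in both other groups, by -1.25 against WT MI (SE 0.12, limma adjusted p = 0.0088) and by -0.90 against WT Sham (SE 0.12, limma adjusted p = 7.2e-04). The first was lost without WT MI replicate 2 (-1.11, limma adjusted p = 0.051) and without a filter (limma adjusted p = 0.055). *Serping1*, for the inhibitor of complement C1, was the most abundant of the list, at 81.75 and 73.94 FPKM for WT Sham, 87.53 and 115.54 for WT MI, and 78.56 and 80.26 for *Card9* KO MI (-0.34 between the infarct groups, limma adjusted p = 0.22). Of 6 genes for proteins that fall in plasma during the response, 3 were tested. *Trf*, for transferrin, was higher in both infarct groups than in WT Sham (0.59, limma adjusted p = 0.044, and 0.90, limma adjusted p = 0.0059). Between the infarct groups limma called 0 of the 3, with 2 lower at an unadjusted p under 0.05, as were 8.57% of all tested genes. The first difference of *Trf* was 0.38 after upper-quartile scaling and 0.37 after quantile normalization (limma adjusted p = 0.14 and 0.16), and the second stayed called at 0.66 and 0.65. *Ahsg*, for fetuin A, was 2.12 and 1.10 FPKM for WT Sham, 1.79 and 2.38 for WT MI, and 0.81 and 0.44 for *Card9* KO MI (-0.93 between the infarct groups, limma adjusted p = 0.13).

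Relatives of the members by sequence family gave 1 call between the infarct groups. Of 23 relatives 12 were tested, with 6 higher and 0 lower in WT MI relative to WT Sham, where 27.7% and 9.39% of all tested genes were. All 6 were at or below 0.50 FPKM in both WT Sham libraries and passed the filter of 1 FPKM only through infarct libraries. They could thus only come out higher, which fixed part of that count. Between the infarct groups, where 0.816% and 0.587% of all tested genes were, 0 were higher and 1 lower, with a median of -0.09. The 1 was *Chil3*, a relative of *Chil1* and the gene nearest to *Lcn2* in profile. It was 0.20 and 0 FPKM for WT Sham, 86.47 and 57.22 for WT MI, and 13.71 and 12.11 for the *Card9* KO MI-labelled libraries (-2.36 between the infarct groups, SE 0.21, limma adjusted p = 0.0073). The call was kept in 12 of 15 alternative settings and lost without WT MI replicate 1 (-2.07, limma adjusted p = 0.051), with an offset of 0.1 (-2.44, adjusted p = 0.069) and without a filter on low values (-2.36, adjusted p = 0.057). *Serpina3i* and *Serpina3g*, close relatives of *Serpina3n* that may share reads with it, both rose in WT MI against the sham level (1.5, limma adjusted p = 0.007, and 1.43, limma adjusted p = 0.0082). Their levels were at most 2.93 and 4.62 FPKM, small beside those of *Serpina3n*. *Steap1* was listed at 0 for WT Sham and was 2.68 and 3.39 FPKM for WT MI, opposite in direction to *Steap4*. *Steap2* was higher than in WT Sham by 1.27 in both WT MI (limma adjusted p = 0.003) and *Card9* KO MI (limma adjusted p = 0.002). Its WT Sham values were only 0.13 and 0.22 FPKM, and the infarct groups differed by -0.01. *Steap3* was 22.39 to 30.25 FPKM over the 6 libraries.

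Cell markers are described beside these results. Neutrophils store lipocalin 2 and haptoglobin in their granules, and the 18 neutrophil markers summed to 11.2 and 7.17 FPKM for WT Sham, to 270 and 133 for WT MI, and to 89.0 and 65.1 for the *Card9* KO MI-labelled libraries. The ratio of the WT MI mean to the *Card9* KO MI mean was 2.62, where that of *Lcn2* was 33.2. *S100a9* was the largest part of the sum in WT MI, at 94.04 and 39.24 FPKM. Among the tested markers this ratio ran from 0.957 for *Padi4* (-0.03 in log2(FPKM + 1)) to 15.8 for *Stfa2l1*, the latter against 0.60 and 0.63 FPKM for *Card9* KO MI. Against the *Card9* KO MI mean, WT MI replicate 1 had a neutrophil sum 3.50 times and an *Lcn2* level 37.7 times as high, and WT MI replicate 2 1.73 and 28.6 times. All 14 tested neutrophil markers lay below 0 between the infarct groups, with a median of -0.68, limma called 0 of them, and 8 were lower at an unadjusted p under 0.05, as were 8.57% of all tested genes. *Stfa2l1* and *Fpr1* reached 1 FPKM only in the 2 WT MI libraries. They were thus tested only through the group where they were high, and their sign was fixed by the filter. The defining markers *Ly6g* and *Camp* were not listed in any library, and the granule genes *Elane* and *Ctsg* likewise, while *Ngp*, *Ltf*, *Mpo* and *Olfm4* were at no more than 0.27 FPKM. Among 12 granule-linked genes, which share *Mmp8*, *Ngp*, *Ltf* and *Camp* with the markers, 3 were tested, and *Arg1*, arginase 1, was the 1 called lower between the infarct groups (90.27 and 86.30 FPKM for WT MI, 47.43 and 44.34 for *Card9* KO MI, -0.93, SE 0.12, limma adjusted p = 0.021). Without WT MI replicate 1 it was -0.90 (limma adjusted p = 0.18), and it passed in 2 of 6 fits without a library and in 6 of 9 other settings. Whole-tissue values do not show which cells held the *Arg1* RNA. *Itgam*, an integrin chain of myeloid cells, was 33.59 and 30.62 FPKM for WT MI and 37.70 and 23.54 for *Card9* KO MI (-0.10, limma adjusted p = 0.85), and *Mmp8*, neutrophil collagenase, 6.83 and 4.13, and 4.06 and 2.95 (-0.50, limma adjusted p = 0.33).

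Macrophage markers went the other way. All 14 were listed in every library, summing to 429 and 366 FPKM for WT Sham, 1490 and 1910 for WT MI, and 3070 and 2230 for the *Card9* KO MI-labelled libraries. All 14 lay above 0 between the infarct groups, with a median of 0.73, limma called 0 of them, and 8 were higher at an unadjusted p under 0.05, as were 11.5% of all tested genes. Fibroblast markers summed to 1380 and 1820 FPKM for WT MI and 2790 and 2690 for *Card9* KO MI. They held the marker calls between the infarct groups, with 2 of 9 higher: *Postn*, for periostin (1.57, limma adjusted p = 0.016), and *Col1a1*, for a collagen I chain (1.06, limma adjusted p = 0.034). The share of all tested genes called higher was 0.816%. Of the 9, 7 lay above 0, with a median of 0.53, while *Pdgfra* (-0.52, limma adjusted p = 0.094) and *Dcn* (-0.16, limma adjusted p = 0.54) lay below. *Col1a1* alone was 359.07 and 515.63 FPKM for WT MI and 931.60 and 870.28 for *Card9* KO MI. Endothelial markers ran from 354 to 436 FPKM over the 6 libraries and adipocyte markers from 473 to 630. Nearly all of the adipocyte sum was *Fabp4*, at 457.13 to 619.69 FPKM, while *Adipoq* was at no more than 2.38. In whole tissue, fewer cells of a type and less RNA per cell cannot be told apart, and the part of these shifts in the levels of *Lcn2*, *Serpina3n* and *Lrg1* was not tested.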

How the data were processed

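RNA of heart tissue below the ligature was extracted with TRIzol, and mRNA was enriched with oligo(dT) beads and sequenced on an Illumina HiSeq instrument. The authors mapped reads to mm9, with BWA and Bowtie2 per the submitters' processing notes, and deposited FPKM values, 1 per NCBI gene number, to 2 decimals and for genes above 0. The annotation and the use of strand in counting are not given in the sources used here, so overlapping genes and close relatives (the Serpina3 cluster, the Saa family) can share reads.

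Groups came from the sample titles. Genes not listed were set to 0, and 17390 of 17441 gene numbers were matched to symbols through a table of GRCm38.p6. Gene positions are those of GENCODE on mm9. Fragments per library were estimated from the steps between low FPKM values. Of these, 72.3% to 75.8% came within 0.15 of a whole fragment, so counts were not rebuilt and no count test was run. Depths cover counting error only.

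The main test was limma 3.58.1 in R 4.3.3, with a linear model per gene and moderated variances with a mean trend, on log2(FPKM + 1), for the 13120 genes that reached an FPKM of 1 in 2 or more libraries, with the 3 groups in one fit and no covariates. P-values were adjusted by Benjamini-Hochberg over all tested genes, with calls below 0.05. Fold changes on this scale understate those of low genes, and fold values in the text are ratios of mean FPKM. The labels do not say whether a library is 1 mouse or a pool, so the unit tested is the library. P-values rest on the spread between libraries, pooled over the 3 groups and moderated towards that of other genes. With 2 against 2, an exact two-sided permutation test cannot go below 0.333, and none was run. The fit was run on simulated data with known changes. Promoters and motifs were read in Python 3.11.15 with pandas 2.3.3, and figures drawn with matplotlib 3.10.9.

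Named were the 9 genes, *Card9*, the 5 profiles nearest to *Lcn2* and to *Slc22a17*, and, per list, up to 4 called genes with the largest change and the 2 most abundant. The receptors and partner of lipocalin 2 were named in full. *Lifr*, *Lif*, *Nfkbia*, *Postn*, *Col1a1*, *Pdgfra*, *Dcn*, *Fabp4*, *Adipoq*, *S100a9*, *Padi4*, *Fpr1*, the unlisted genes and the granule genes near 0 were named after their values were seen. The genes and lists were chosen with earlier results of these data known. Alternatives were offsets of 0.1 and 5, unfiltered genes, genes whose mean FPKM reached 5, scaling by the upper quartile or by quantiles, only the groups compared, eBayes without trend, a replicate block, a fold change of at least 2, and each library left out in turn.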

Additional observations from a re-analysis of the deposited data

How the results depend on the processing

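Of 357 differences of members under alternative settings, 335 kept their direction and their side of the threshold, 10 passed only there, 8 were lost and 4 changed sign. *Lcn2*, *Serpina3n* and *Lrg1* stayed lower between the infarct groups in every setting, and the member count was 3 or 4 (the fourth *Cp*). The sign changed for *Slc22a17* in WT MI against WT Sham under quantile normalization (-0.04) and, between the infarct groups, for *Saa3* without WT MI replicate 1 (0.07) and *Card9* KO MI replicate 2 (1.21) and for *Steap4* without WT MI replicate 2 (0.04). With 1 library left out, these differences ran from -1.54 to 1.21 and from -0.15 to 0.04.

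Of the related lists, 4 genes were called between the infarct groups, 1 with an offset of 0.1, 2 without the trend and, in limma without a filter, 0 (11 at an unadjusted p under 0.05). Leaving out 1 library gave 1 to 3, the 1 without WT MI replicate 1 and 2 without either *Card9* KO MI library. Against WT Sham, *Card9* KO MI had 35, and 23 with a mean FPKM of at least 5, where fewer genes were tested. The replicate numbers did not pair the libraries (correlations of deviations 0.002, -0.008 and 0.02). With the replicate block, 6, 3 and 7 members and 35, 3 and 36 list genes were called in WT MI against WT Sham, *Card9* KO MI against WT MI and *Card9* KO MI against WT Sham. Depth limits *Chil1* and the WT Sham levels of *Saa3* and *Hp*, at a few fragments each.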
